A study of Coturnix japonica with 19 samples.

Results

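The 9 juvenile Japanese quail whose pituitary glands were sequenced were divided by their counts of HINTW, and the 2 classes so chosen by HINTW counts were compared across genes. HINTW is a gene of the avian W chromosome, which females (ZW) carry and males (ZZ) lack. Libraries with 10 or more HINTW counts were called HINTW-rich (female by this rule) and those with fewer were called HINTW-poor (male by this rule). There were 3 HINTW-rich and 6 HINTW-poor libraries of 19 in the series. The juveniles were killed on posthatch day 10, after 5 days of acclimation to a long photoperiod and 5 days in either 16 h light and 8 h dark (16L) or 8 h light and 16 h dark (8L). Under 16L the classes held 2 HINTW-rich and 2 HINTW-poor birds, and under 8L they held 1 and 4. The other 10 libraries came from adult males, 5 collected after 8 weeks in 16L and 5 in short days, and are given beside the juveniles as libraries the rule did not use. Each library came from the pituitary of 1 bird, dissected from the sella turcica, a cavity of bone at the base of the skull, with the pars tuberalis left behind.

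In birds, females have 1 copy of each Z gene and males have 2. Birds do not silence a whole Z chromosome in males in the way that mammals silence an X in females, so dosage is made up gene by gene and only in part. HINTW is itself a many-copied W gene related to the Z gene HINT1, and its RNA is widely used to tell the sex of a chick. The pituitary of both sexes makes growth hormone (GH), prolactin (PRL), proopiomelanocortin (POMC) and the glycoprotein hormones, whose shared subunit is CGA.

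Levels are given in CPM, counts per 1000000 counts scaled over all 19 libraries, and every fold change is HINTW-rich over HINTW-poor on the log2 scale from a fit with photoperiod as a term. Adjusted p-values are Benjamini-Hochberg values over all 3745 symbols tested with edgeR's quasi-likelihood test. HINTW chose the classes and was left out of every count of calls. The HINTW-rich libraries held 234166 to 1074139 counts and the HINTW-poor libraries 90599 to 684981, with 4 HINTW-poor libraries under 200000, so that low genes were measured less well in HINTW-poor birds. In the shallowest juvenile libraries 3 counts stood for 22.7 and 25.8 CPM, against 2.72 CPM in the deepest.

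HINTW was all or none. It had 120 and 67 counts in juvenile 16L replicates 3 and 4 and 307 counts in juvenile 8L replicate 2, against 0 counts in each of the 6 HINTW-poor juveniles. It also had 0 counts in the 10 adult males, whose libraries held 14523361 counts in all. In CPM the HINTW-rich libraries stood at 322, 246 and 279 (mean 282 ± 38.0, SD, n = 3). With a floor of 3 counts over the HINTW-poor class, the level was at least 133-fold higher in HINTW-rich birds. The rule left no library near its threshold, as the lowest HINTW-rich library had 67 counts and the highest HINTW-poor library 0.

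The HINTW class went against the sex that the study lists for 2 of the 9 birds, both under 16L. Juvenile 16L replicate 3 is listed as male and had 120 HINTW counts. Juvenile 16L replicate 2 is listed as female and had 0 of 91030 counts, where the mean HINTW-rich level would have given 32.8. The listed and the measured sex were the same in the other 7 birds, and 3 females were listed in all. Results below are by HINTW class, and are given again without these 2 birds where they bear on them.

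**Figure D1:**
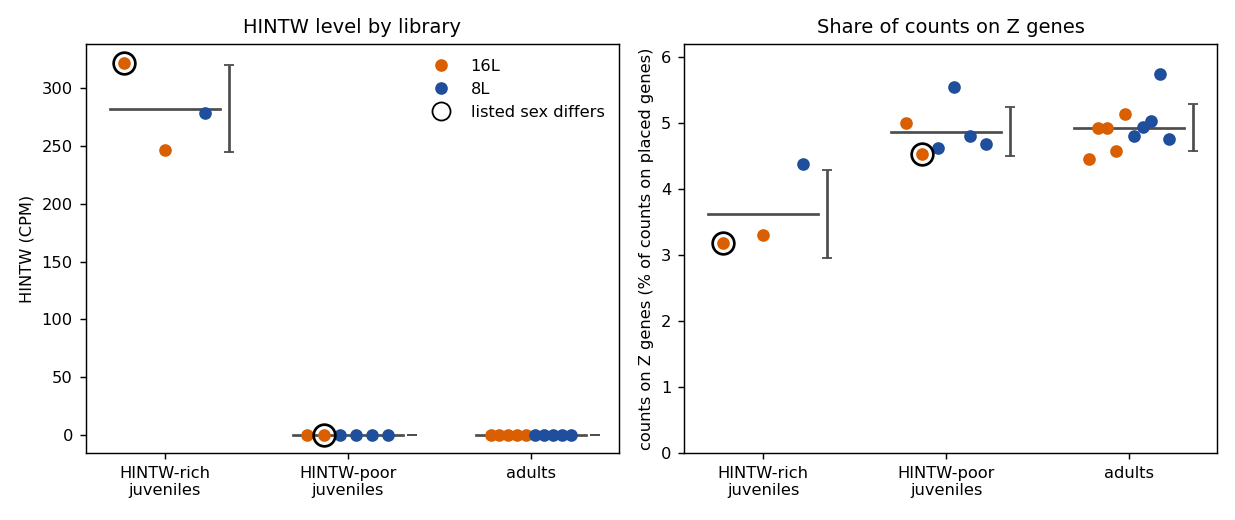
HINTW in CPM (left) and the percentage of counts on placed genes that fell on Z genes (right) in each library, by class and photoperiod, with the class mean as a line and its SD as a bar. HINTW stood at 246 to 322 CPM in the 3 HINTW-rich juveniles and at 0 elsewhere, and the same 3 libraries had Z shares of 3.18% to 4.39%, under the 4.53% to 5.55% of HINTW-poor juveniles.

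A block of 34 symbols, HINTW among them, was picked out as counted in the 3 HINTW-rich libraries and next to nowhere else. Each had at least 50 counts in every HINTW-rich library and at most 3 in any of the other 16. The other 33 are LOC symbols, which the files do not pair with names and which the quail annotation at hand does not list. With HINTW, 14 of the symbols had 0 counts in all 16 other libraries, and 10 of the 13 beside HINTW stayed within 6% of the HINTW count in all 3 HINTW-rich birds. The other 20 symbols were more abundant, with medians of 395, 252 and 1336 counts in juvenile 16L replicates 3 and 4 and 8L replicate 2, against at most 3 counts in 2 HINTW-poor juveniles and 1 in an adult.

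The most abundant symbol of the block was LOC121108846. It had 1461, 920 and 3830 counts in the 3 HINTW-rich libraries, against 1 count in juvenile 16L replicate 1, 3 counts in juvenile 8L replicate 5 and 0 in the other 4 HINTW-poor juveniles. Its summed level was 1255-fold higher in HINTW-rich birds (exact 95% interval on the counts 490 to 4606, covering counting error only). It is a description with no test, since the block was chosen by this pattern. The block took 2.05%, 3.01% and 3.18% of all counts in the 3 HINTW-rich libraries. Reads of near-identical copies can be split or repeated among symbols, so counts this close to one another were not taken as 34 separate measurements.

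**Figure D2:**
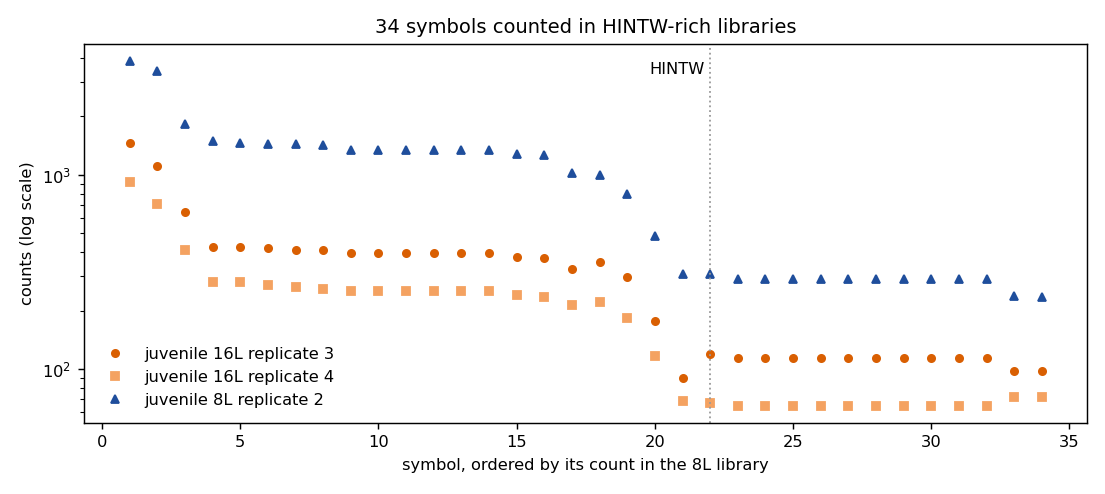
Counts of the 34 symbols (log scale) in each of the 3 HINTW-rich libraries, ordered by count in the 8L library, with HINTW at the dotted line. HINTW and 10 other symbols lie on one level, and 20 symbols lie above it, with medians of 395, 252 and 1336 counts.

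Outside this block the classes differed at the adjusted threshold by 1 symbol. Of 3744 symbols tested beside HINTW, 34 were higher in HINTW-rich birds at an adjusted p under 0.05 (0.908%) and 0 were lower (0%), where DESeq2 called 56 higher and 32 lower and limma-voom 43 and 0. At an unadjusted p under 0.05 there were 217 in either direction (5.8%). The block supplied 33 of the 34, and these are no support for a difference, since they passed the filter on low counts through HINTW-rich libraries alone. At an unadjusted p under 0.01, the threshold used in the study's own comparisons, 60 were higher (1.6%) and 22 lower (0.588%). The 1.6% includes the block, and outside it 27 of 3711 symbols were higher and 22 lower. Without the 2 birds whose listed sex differs, 42 were higher and 6 lower at this threshold, with the block not left out.

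The remaining call was LOC374195, at 354, 276 and 429 CPM in HINTW-rich birds, against 4.18, 25.8, 0, 21.1, 7.57 and 12.7 CPM in HINTW-poor birds. The classes did not overlap in either photoperiod, and the adults lay with the HINTW-poor birds at 8.43 to 52.4 CPM. Its log2 fold change was 4.64 ± 0.87 (SE, adjusted p = 0.0426). LOC374195 had at most 5 counts in any HINTW-poor library. It passed the filter on low counts through HINTW-rich libraries alone, so this call is no support for a difference either. This call rests on the block: with the 34 symbols left out of the fit the fold change was 4.70 and the adjusted p 0.356, and no symbol passed. Without the 2 birds whose listed sex differs the fold change was 5.31 (adjusted p = 0.212). With 1 library left out, the call was kept only without juvenile 8L replicate 1 or 3, and the adjusted p was 0.0583 to 0.617 without any of the other 7. The count of 34 likewise fell to 20 or 21 without any 1 of juvenile 16L replicates 1, 2 and 3 and 8L replicates 2 and 5.

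No other gene passed with edgeR, and those with the smallest p are given as values. The higher ones named here were chosen after their values were seen. COL25A1, a transmembrane collagen of neurons, had 113, 188 and 123 CPM in HINTW-rich birds, against 0 counts in all 6 HINTW-poor birds, where the HINTW-rich mean would have given 16.4 to 55.5 counts. It was counted in 9 of the 10 adult males, at a median of 113 CPM. The adult without a count, adult 8L replicate 2, had the shallowest adult library, at 128509 counts. COL25A1 was chosen in part by its HINTW-poor values, so this is no support for a difference between HINTW-poor juveniles and adults. With a floor of 3 counts over the HINTW-poor class, the level was at least 61.4-fold higher in HINTW-rich birds, and no fitted value is given because that class is at 0.

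PAX6, a transcription factor of the eye and forebrain, had 247, 228 and 319 CPM in HINTW-rich birds, against 75.2, 8.61, 3.42, 0, 0 and 0 CPM in HINTW-poor birds and 141 to 354 CPM in adults (log2 fold change 4.69 ± 1.16, SE, adjusted p = 0.198). With juvenile 8L replicate 2 left out its fold change was 2.41, and with juvenile 16L replicate 1 left out it was 6.51. RAPGEF4, an exchange factor for Rap proteins that cyclic AMP activates, had 94.0, 47.8 and 126 CPM in HINTW-rich birds, against at most 7.62 CPM in HINTW-poor birds (4.98 ± 0.99, adjusted p = 0.0571). DOCK3, an exchange factor for Rac in neurons, had 61.8, 235 and 75.3 CPM, against at most 7.57 CPM in HINTW-poor birds (5.89 ± 1.18, adjusted p = 0.0589). The classes did not overlap for any of these, as for 5.34% of all symbols tested in this direction. COL25A1, RAPGEF4 and DOCK3 had at most 3 counts in any HINTW-poor library. They passed the filter on low counts through HINTW-rich libraries alone, so their values are no support for a difference. PAX6 had 18 counts in juvenile 16L replicate 1 and at most 1 in any other HINTW-poor library. It too was kept by the filter only because of the HINTW-rich libraries, so its value is no support either. NLRP1L, THNSL1, DNM3, WDSUB1, FBXO31 and ALMS1 completed the 10 with the smallest p in this direction, and the libraries of 1 class were uneven in some of them. WDSUB1 had 77.9, 0 and 134 CPM in HINTW-rich birds, against 0 to 3.42 CPM in HINTW-poor birds, and ALMS1 had 204, 0 and 79.0 CPM, against 0 to 4.18 CPM. NLRP1L, THNSL1, DNM3, WDSUB1, FBXO31 and ALMS1 had at most 4 counts in any HINTW-poor library and passed the filter in the same way. Of the 27 symbols outside the block that were higher at p under 0.01, 26 were counted in 8 or more of the 10 adult males, as were 96.9% of all symbols tested. Of the 22 that were lower, 9 were. All 27 had an adult mean above the HINTW-poor mean, against 69.8% of all symbols tested and 1 of the 22. Both sets were chosen in part by their HINTW-poor values, so this comparison is no support for a difference between HINTW-poor juveniles and adults. Adult males had 45.1 to 227 CPM of RAPGEF4 and 119 to 386 CPM of DOCK3. COL25A1, PAX6, RAPGEF4 and DOCK3 are placed on chromosomes 4, 5, 7 and 12 by the annotation at hand.

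Among the genes with lower values in HINTW-rich birds, bone genes came first. BGLAP, which encodes osteocalcin, had 2.69, 0 and 0.908 CPM in HINTW-rich birds, against 142, 34.5, 54.7, 21.1, 15.1 and 142 CPM in HINTW-poor birds (log2 fold change -5.73 ± 1.14, SE, adjusted p = 0.0571). SPP1, which encodes osteopontin, had 10, 3 and 14 counts in HINTW-rich birds, at most 26.9 CPM, against 50.6 to 3570 CPM in HINTW-poor birds (-6.13 ± 1.64, adjusted p = 0.272). COL1A1, the main chain of bone collagen, had 80.6, 58.8 and 35.4 CPM, against 135 to 5268 CPM in HINTW-poor birds (-5.12 ± 1.30, adjusted p = 0.221). IBSP and IFITM5, which are also bone-forming cell genes, had fold changes of -7.41 and -5.93 on the log2 scale. Without juvenile 8L replicate 2 they were -5.41 and -4.56. DMP1, a further bone-forming cell gene, had 0 counts in all 3 HINTW-rich birds, so no fitted value is given. With a floor of 3 counts over the HINTW-rich class, its level was at least 42.1-fold lower in HINTW-rich birds. COCH, PRRX1 and SH2D6 were also among the 10 genes with the smallest p in this direction. In BGLAP, SPP1 and COL1A1 the classes did not overlap, as in 0.748% of all symbols tested in this direction. BGLAP, IBSP, IFITM5, DMP1, COCH and SH2D6 had at most 1 count in any HINTW-rich library. They passed the filter on low counts through HINTW-poor libraries alone, so their values are no support for a difference. SPP1 and PRRX1, at most 26.9 CPM in any HINTW-rich library, passed in the same way.

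**Figure D3:**
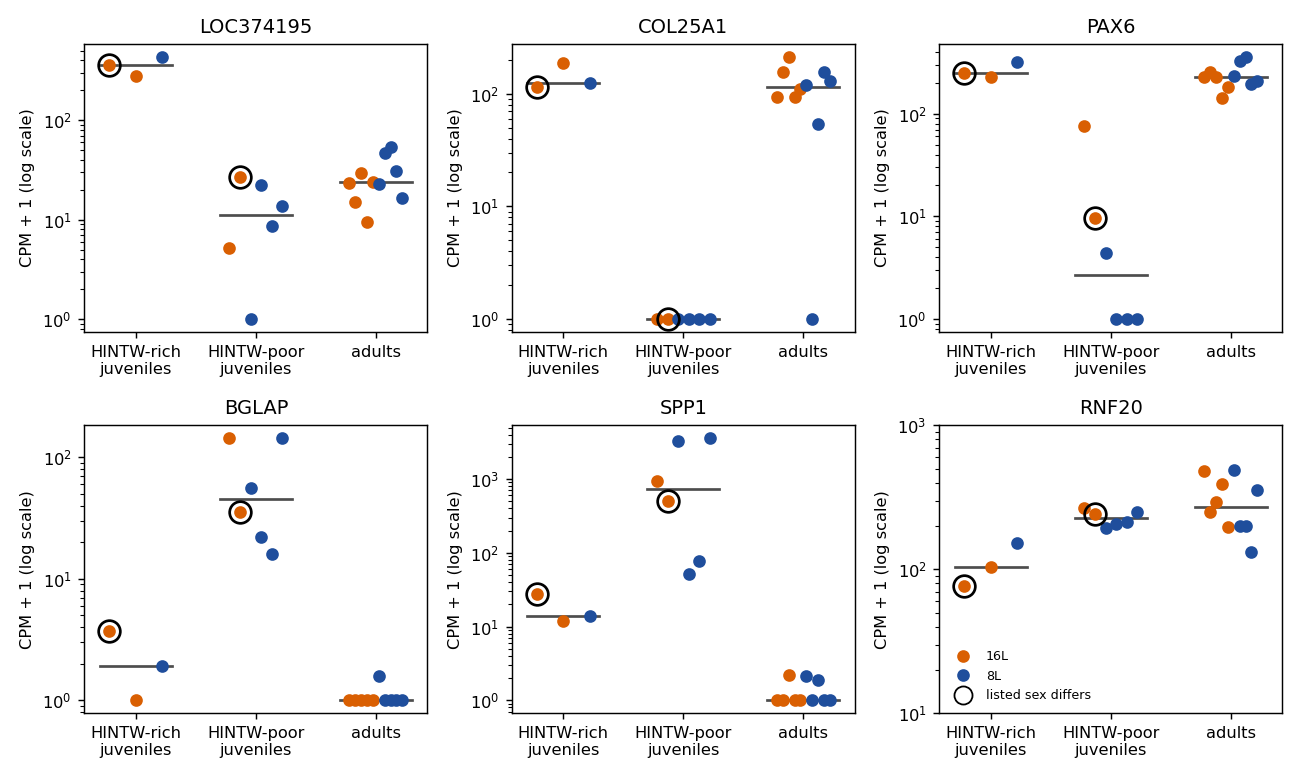
CPM + 1 (log scale) of 6 genes in each library, by class and photoperiod, with the class median as a line. LOC374195, COL25A1 and PAX6 were above every HINTW-poor juvenile in all 3 HINTW-rich birds, BGLAP, SPP1 and the Z gene RNF20 were below, and adults had 141 to 354 CPM of PAX6.

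The Z chromosome was the part of the genome with the lowest fold changes. Symbols were placed by name on the RefSeq annotation of the quail assembly, which put 558 of the 19562 symbols on Z. Counts on Z genes made up 3.18% and 3.31% of counts on placed genes in juvenile 16L replicates 3 and 4 and 4.39% in juvenile 8L replicate 2, against 5.01% and 4.53% in the HINTW-poor birds under 16L and 4.63%, 5.55%, 4.81% and 4.69% in those under 8L. The mean was 3.63% ± 0.663 in HINTW-rich birds (SD, n = 3) and 4.87% ± 0.371 in HINTW-poor birds (SD, n = 6). All 3 HINTW-rich libraries lay below all 6 HINTW-poor libraries, and below the adult males, which spanned 4.46% to 5.75%. The HINTW-rich bird under 8L was closer to the HINTW-poor birds than to the 2 HINTW-rich birds under 16L.

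The Z share placed juvenile 16L replicate 3 on the side of its HINTW counts and did not place the other disputed bird. Juvenile 16L replicate 3, listed as male, had the lowest share of all libraries at 3.18%. Juvenile 16L replicate 2, listed as female, had 4.53%, which was itself the lowest HINTW-poor share. It lay between the 4.39% of HINTW-rich juvenile 8L replicate 2 and the 4.63% of HINTW-poor juvenile 8L replicate 1. By the median of Z genes less that of other genes, it stood at -0.05, against 0.08 in juvenile 8L replicate 2. With the 5 Z genes of most counts left out, the HINTW-rich shares were 2.71%, 2.83% and 3.76% and the HINTW-poor shares 3.77% to 4.47%, so that juvenile 8L replicate 2 and juvenile 16L replicate 2 nearly met. With hormone, bone, cartilage, red cell and connective tissue genes left out, the shares were 3.34%, 3.51% and 4.49%, against 4.61% to 5.70%.

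Gene by gene the difference was spread thinly. Of the 3745 symbols tested, 162 lay on Z, and 90 of these (55.6%) had a fold change under 0, against 40.7% of all genes tested. Their median log2 fold change was -0.12, against 0.23 over the 2813 genes placed on other chromosomes and 0.20 over all genes tested, a difference of -0.35 between Z and the others. Both medians moved with the scaling and filter, and their difference was below 0 in all alternatives run. Z had the lowest median of the 28 chromosomes with 20 or more genes tested, with chromosome 17 next at -0.07. Per library, the median of Z genes less that of the others, against the HINTW-poor mean, was -0.45, -0.65 and 0.08 in the 3 HINTW-rich birds and ran between -0.18 and 0.40 in the HINTW-poor birds, so that on this scale juvenile 8L replicate 2 lay within the HINTW-poor range. Without the 2 birds whose listed sex differs the difference was -0.34, under 16L alone -0.41 and under 8L alone -0.30. The 8L value rests on 1 HINTW-rich bird, juvenile 8L replicate 2, which lay within the HINTW-poor range on the scale per library. The genes tested also differed between these fits, with 95 Z genes under 16L and 246 under 8L. The 2 photoperiods are therefore not taken as separate support for a lower Z.

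**Figure D4:**
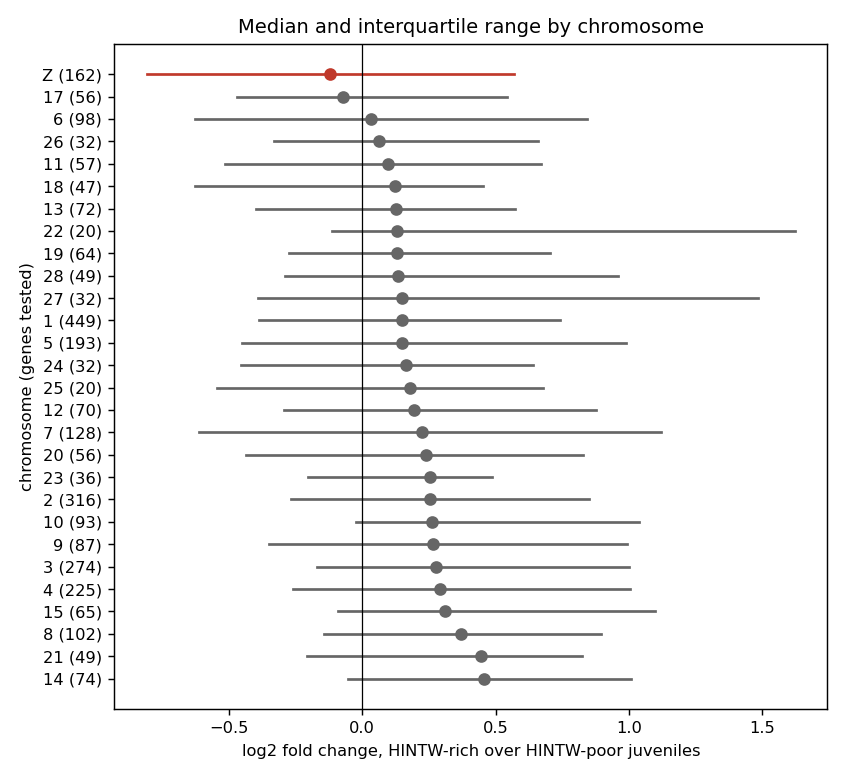
Median (point) and interquartile range (line) of the log2 fold change of genes tested on each chromosome with 20 or more, HINTW-rich over HINTW-poor juveniles. Z, in red, has the lowest median at -0.12, against 0.23 over genes of the other chromosomes, and its range overlaps theirs.

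No Z gene passed the adjusted threshold with edgeR or limma-voom, and 3 did with DESeq2. At an unadjusted p under 0.05 with edgeR 5 were lower and 2 higher (4.32% of the 162, against 5.8% of all symbols tested). The smallest p belonged to KIAA1328, which had 0, 0 and 4.54 CPM in HINTW-rich birds, against 4.18 to 159 CPM in HINTW-poor birds, so that the classes met (log2 fold change -4.83 ± 1.47, SE, adjusted p = 0.430). RNF20, which encodes a ubiquitin ligase of histone H2B, had 75.2, 103 and 152 CPM in HINTW-rich birds, against 191 to 263 CPM in HINTW-poor birds and 131 to 487 CPM in adults (log2 fold change -1.27 ± 0.48, SE, adjusted p = 0.740). The ribosomal protein genes RPS6 and RPS23 had 387, 357 and 254 CPM and 328, 305 and 327 CPM in HINTW-rich birds, against 468 to 1285 CPM and 388 to 1249 CPM in HINTW-poor birds. In RAI14, the remaining lower gene, the classes overlapped at 0, 0 and 12.7 CPM in HINTW-rich birds, against 0 to 686 CPM in HINTW-poor birds. The 2 with higher values were PAIP1, which binds the poly(A)-binding protein, at 118, 210 and 260 CPM, against 17.1 to 84.3 CPM, and PSIP1, at 45.6, 22.1 and 61.7 CPM, against 0 to 35.5 CPM with overlap. KIAA1328 and RAI14 had at most 12.7 CPM in any HINTW-rich library. Both passed the filter on low counts through HINTW-poor libraries alone, so their p-values are no support for a difference. By overlap in place of p, 5 of the 162 Z genes were lower and 2 higher in every HINTW-rich bird than in every HINTW-poor bird. Of all symbols tested, 0.748% and 5.34% were. KIAA1328, RAI14 and PSIP1 were not among these Z genes.

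Genes with a copy on both Z and W (gametologs) did not move as a group. Of the 31 listed from knowledge of birds, 9 were tested, 4 with a fold change under 0 and 5 above, with a median of 0.17. RPL17 had the smallest p, at 462, 316 and 584 CPM in HINTW-rich birds, against 548 to 1808 CPM in HINTW-poor birds (-1.30 ± 0.45, SE, adjusted p = 0.645). UBAP2 had 303, 320 and 575 CPM, against 0 to 329 CPM. The symbol ATP5F1AW, named for a W copy, was not specific to the HINTW-rich class: it had 4, 3 and 27 counts in HINTW-rich birds, against 0 to 6 counts in HINTW-poor birds and 8 to 121 counts in adult males.

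None of the 5 pituitary hormone genes tested passed, and CGA was the only one of them whose classes did not overlap. The classes did not overlap, with HINTW-rich birds higher, in 5.34% of all symbols tested. GH had 32540, 25848 and 39996 CPM in HINTW-rich birds, against 41862, 84523, 1996, 15629, 15627 and 3022 CPM in HINTW-poor birds (log2 fold change 0.22 ± 0.91, SE, adjusted p = 0.996). PRL had 6227, 8150 and 2182 CPM, against 99.1 to 4361 CPM in HINTW-poor birds (0.77 ± 1.29). POMC had 12885, 11207 and 3210 CPM, against 85.5 to 4005 CPM (2.54 ± 1.62), where the HINTW-rich bird under 8L lay within the HINTW-poor range. CGA had 5255, 4219 and 5996 CPM, above the 92.3 to 3907 CPM of every HINTW-poor bird (1.24 ± 0.96, adjusted p = 0.996). TSHB, the thyrotropin subunit, had 113, 51.5 and 189 CPM, against 0 to 75.7 CPM (1.57 ± 1.16). FSHB, NTS and OPN5, which the study examines by name, were near or at 0 counts in both classes and were not tested.

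Summed levels of bone-forming cell and osteoclast genes did not overlap between the classes, and where this RNA came from was not tested. The summed level of 14 genes of bone-forming cells was 209, 125 and 128 CPM in HINTW-rich birds, against 4329, 2257, 14190, 350, 946 and 13874 CPM in HINTW-poor birds, without overlap. All 11 of these genes that were tested had a fold change under 0 and an unadjusted p under 0.05, with a median of -5.12, against 0.20 over all genes tested, where 5.8% of all symbols tested had such a p in either direction. BGLAP, IBSP, IFITM5 and DMP1 had at most 1 count in any HINTW-rich library. They passed the filter on low counts through HINTW-poor libraries alone, so the count of 11 is not taken as support for a difference. None of the 11 passed the adjusted threshold with edgeR or limma-voom, 8 did with DESeq2, and 7 of 14 did with no filter on low counts. Without the 2 birds whose listed sex differs their median was -5.74. The 3 osteoclast genes tested (CTSK, ACP5 and NFATC1) had a median of -4.65, all at p under 0.05. The 8 osteoclast genes found summed to 5.37, 22.1 and 9.98 CPM, against 37.9 to 548 CPM. The lowest HINTW-poor sum, in juvenile 8L replicate 4, lay near the floor, as 3 counts stood for 22.7 CPM there. This lack of overlap therefore rests on a few counts. The 3 tested had at most 2 counts in any HINTW-rich library. They too passed the filter through HINTW-poor libraries alone, so their p-values are no support for a difference. Hemoglobin and other red cell genes had a median of -1.66 and 3 of 6 at p under 0.05, and matrix genes of fibroblasts had a median of -2.67 with 6 of 12. Cartilage genes had a median of -3.32 with 1 of 6, and glial genes a median of -2.40 with 2 of 3. The list of endothelial and mural (vessel wall) cells had 1 of 3 at p under 0.05, the mural gene ACTA2, and skeletal muscle genes had 0 of 1. The summed levels of all of these but the bone-forming cell and osteoclast lists overlapped between the classes. FN1, THBS2, DCN, COL5A2 and LUM (matrix), GJA1 (glial) and ACTA2 (mural) had at most 29.4 CPM in any HINTW-rich library. These genes passed the filter on low counts through HINTW-poor libraries alone. The counts of the matrix list, the glial list and the endothelial and mural list are therefore not taken as support for a difference. Without juvenile 8L replicates 1 and 5, the cartilage median was -0.34 over 3 genes tested. HAPLN1, a cartilage matrix gene on Z, had 0 counts in every juvenile of both classes under 16L. Under 8L it had 10.9 CPM in the HINTW-rich bird, against 1145, 50.6, 7.57 and 551 CPM in HINTW-poor birds, with overlap. The study names HAPLN1 among the transcripts that differed between long and short photoperiods in juveniles. In HINTW-rich birds 3 of the 14 bone-forming and 3 of the 8 osteoclast genes were at 0 counts. In adult males the bone sum was 34.0 to 57.1 CPM, below both juvenile classes.

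No gene of the endocrine cell lists passed, and some of their sums were higher in HINTW-rich birds. The summed level of 12 genes of secretory granules was 10659, 10151 and 9880 CPM in HINTW-rich birds, against 984 to 7885 CPM in HINTW-poor birds, without overlap. The granins CHGA (5088, 5414 and 4037 CPM, against 441 to 3192 CPM) and CHGB (3625, 3376 and 3308 CPM, against 239 to 3368 CPM) made up most of it. All 8 granule genes tested had a fold change above 0, with a median of 0.56, against 0.20 over all genes tested. None had an unadjusted p under 0.05, and 40.7% of all symbols tested had a fold change under 0. Without juvenile 8L replicates 1 and 5 the granule median was 0.12 over 7 genes tested. The median over all genes tested in that fit was 0.23, so the granule genes did not stand above it. Transcription factors of the pituitary lineages summed to 897, 883 and 1048 CPM, against 256 to 767 CPM, and the neuron list, most of it MAP2, to 10370, 7323 and 6597 CPM, against 1640 to 5283 CPM. Receptors of hypothalamic hormones, steroid receptors and enzymes, activin and BMP genes, cell division genes and immediate early genes had medians between 0.23 and 0.92, and none of the 28 tested had an unadjusted p under 0.05. Genes of the developing gonad and of leukocytes were too low for any to be tested. The 10 gonad genes summed to 61.8, 44.1 and 31.8 CPM in HINTW-rich birds, against 0 to 17.8 CPM in HINTW-poor birds, without overlap, and to 37.1 to 78.3 CPM in adult males. These HINTW-poor sums lay near the floor, as 3 counts stood for 22.7 and 25.8 CPM in the shallowest juvenile libraries. In HINTW-rich birds 4 of the 10 gonad genes were at 0 counts. Levels in whole tissue do not tell fewer cells of a type from less RNA per cell.

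**Figure D5:**
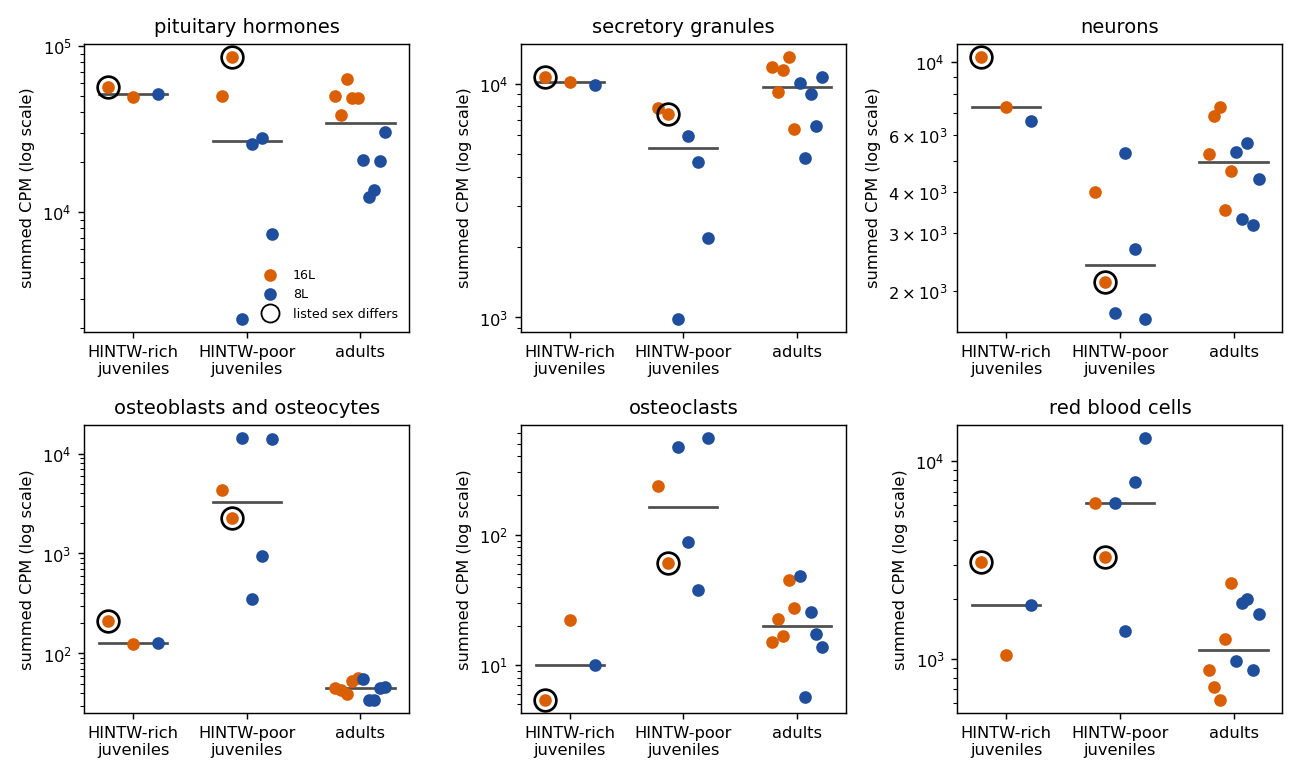
Summed CPM (log scale) of 6 gene lists in each library, by class and photoperiod, with the class median as a line. The 3 HINTW-rich juveniles had 125 to 209 CPM of bone-forming cell genes and 9880 to 10659 CPM of granule genes, against 350 to 14190 and 984 to 7885 CPM in the 6 HINTW-poor juveniles.

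The bone and granule sums did not overlap between the classes, and their part in the differences of single genes was not tested. The 2 HINTW-poor libraries with the most bone RNA, juvenile 8L replicates 1 and 5, were also the 2 deepest of that class. Without both, 20 symbols were higher at an adjusted p under 0.05 and none outside the block. LOC374195 then had a log2 fold change of 4.32 (adjusted p = 0.0819), PAX6 3.94, COL1A1 -4.02 and SPP1 -4.27, and the Z difference was -0.45.

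Photoperiod was kept in view in 2 further fits. With the HINTW class as a term, 16L against 8L gave 0 symbols at an adjusted p under 0.05 in juveniles by edgeR, limma-voom and DESeq2, with 92 at an unadjusted p under 0.05 and 10 of 3744 at p under 0.01 (0.267%), 2 of them higher in 16L and 8 lower. Without the class term there were 3 of 2405 at p under 0.01, and all 3 (NEXN, TRPS1 and WIPF1, named after their values were seen) were among the 10. NEXN, an actin-binding protein of muscle, had the smallest p in both, with log2 fold changes of -6.10 ± 1.47 with the class term and -5.59 ± 1.34 without it (SE, 16L over 8L).

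The difference between classes was not shown to depend on photoperiod. The interaction gave 0 of 5168 symbols at an adjusted p under 0.05 by edgeR and 1 by DESeq2, with 156 at an unadjusted p under 0.05 and 16 at p under 0.01 (0.31%), and its 8L side rests on 1 HINTW-rich bird. ZCCHC11, which encodes a uridylyltransferase of RNA ends, had the smallest p. Under 16L it had 282 and 331 CPM in HINTW-rich birds, against 0 and 0 CPM in HINTW-poor birds, and under 8L it had 253 CPM, against 88.9, 211, 250 and 282 CPM (adjusted p = 1.00).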

How the data were processed

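Pituitary RNA of 19 Japanese quail was made into complementary DNA with a PCR-cDNA barcoding kit and read on an Oxford Nanopore GridION. The authors called bases with guppy, trimmed and filtered reads with Porechop and Filtlong, used minimap2 for alignment to a quail genome reference and Salmon for transcript abundance. Tool versions are not given in the sources used here. The values used are the estimated counts that the authors deposited, not normalized, and over 99% of them were whole numbers in every library. The 63260 transcripts were summed to 19562 gene symbols and rounded. The annotation behind the symbols is not known: 11430 matched the quail RefSeq table (assembly Coturnix japonica 2.1) by symbol, with 0 of 5993 LOC symbols among them, and this table holds no W chromosome. No gene coordinates are therefore given.

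Classes were set by 10 HINTW counts. The juveniles were fitted with edgeR 4.0.16 (glmQLFit with legacy=TRUE, limma 3.58.1, R 4.3.3), TMM factors, filterByExpr with a minimum count of 10 and minimum total of 15, and photoperiod and class as terms. Standard errors come from the quasi-likelihood F statistic. DESeq2 1.42.0 and limma-voom were alternatives. In simulated data on 3744 symbols, 32% of 16-fold changes and 0% of 4-fold changes were called between these classes, so that a gene without a call may still differ. Figures were drawn with matplotlib 3.10.9. Nothing in the labels says that birds were handled in batches. Counts come from PCR products without molecular identifiers, so intervals cover counting error only.

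Named genes were HINTW and symbols that share its pattern, the genes past an adjusted p of 0.05 (or, where fewer than 5 passed in a direction, the 10 with the smallest p and a symbol other than LOC), up to 4 members of each list and of the Z genes by p, the gametologs tested, the hormone genes, NTS, OPN5 and HAPLN1, and the gene with the smallest interaction p. Some genes that this rule names are given only within the counts of their list, and 1 is not reported here. The classes, lists and members were chosen with earlier results of these data known. The lists of bone, cartilage, red cell, connective tissue, glial and other markers came from general knowledge. The 34-symbol block, the thinning of counts and the fit without juvenile 8L replicates 1 and 5 were chosen after seeing the data.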

Additional observations from a re-analysis of the deposited data

Results flagged for a closer look

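In these data 2 libraries stood apart in their own group by a gap to the next library larger than Dixon's 95% limit, and both were adults. Adult 16L replicate 3 held 4796665 counts, the most of its 5 libraries. Adult 8L replicate 4 had the highest share of counts on Z genes in its group, at 5.75%. Chance gives such a gap in about 1 of 20 groups. Neither library entered the comparison of juvenile classes.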

How the results depend on the processing

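The direction of LOC374195 and of the 10 other symbols with the smallest p in each direction held in every alternative that tested them. These symbols were chosen by their values in the same libraries, so a kept direction is no support for a difference. The Z difference stayed below 0 in each alternative, while the Z median itself ran from -0.23 to 0.29. The 34 higher symbols became 56 with DESeq2, 74 with no filter, 66 with all 19 libraries in 1 fit, 60 at p under 0.01, 20 without the 2 birds whose listed sex differs, 21 without libraries under 200000 counts, 19 in 8L juveniles only and 0 in 16L juveniles only. By listed sex in place of the HINTW class 0 were higher, and the Z difference was -0.13. With juvenile 8L replicates 1 and 5 left out, or with libraries thinned to 90000 counts, 20 were higher. With 1 library left out at a time there were 20 to 35 higher and 0 to 1 lower, and the 22 lower at p under 0.01 ran from 3 without juvenile 8L replicate 2 to 39 without juvenile 8L replicate 3.

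Outside the block, the 1 higher symbol became 23 with DESeq2, 10 with limma-voom, 41 with no filter, 7 with 10 counts required in every library of a class, 4 with no photoperiod term and 33 with all 19 libraries. It became 0 by listed sex, without the 2 disputed birds, in either photoperiod alone, without juvenile 8L replicates 1 and 5, after thinning and with the block left out, and 0 to 3 with 1 library left out. The 0 lower symbols became 32 with DESeq2, 31 with no filter, 22 at p under 0.01, 12 with all 19 libraries, 2 without libraries under 200000 counts, 2 at an adjusted p under 0.2, and 1 with upper-quartile factors or no photoperiod term. With 1 library left out the Z difference ran from -0.46 to -0.28.

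For 16L against 8L with the class as a term, no filter gave 5 lower. For the interaction, DESeq2 gave 1 and no filter 3, the fit without juvenile 8L replicate 2 could not be made, and the 16 symbols at p under 0.01 ran from 7 to 51 with 1 library left out. Same-numbered 16L and 8L birds share only a number: their deviations correlated at 0.15, -0.19, 0.03 and -0.05 across genes, and 1 of 4 correlated best with its own number. With the replicate block, 0 symbols were higher and 0 lower by class, 0 outside the block of 34. Depth limits the HINTW-poor class most, with 4 of 6 libraries under 200000 counts.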
